A study of Mus musculus with 27 samples.

Results

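Zfp352, Tmem92, Ubtfl1, Eif1ad, Tdpoz1, Tdpoz3, Tdpoz4, Usp17la, Usp17lc and Usp17le were followed through mouse embryos that had been treated with inhibitors or injected with siRNAs. They were named as genes of 2-cell stage families other than Dux and Zscan4, and all 10 were found among the 55367 genes of the count table. Of these 10 genes, 9 were low in control embryos and high with deacetylase inhibitors. The other, Eif1ad, was abundant in control embryos and lower with TSA.

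In the mouse, the embryo's own genome is first transcribed in a major wave at the 2-cell stage, when a set of genes and the endogenous retrovirus MERVL are switched on for a short time and then silenced. The same set can reappear in rare embryonic stem cells, and the transcription factor Dux and the Zscan4 proteins are the best known members of that programme. Zfp352 encodes a zinc finger protein, and the Tdpoz genes encode proteins with a TRAF domain and a POZ domain, relatives of the ubiquitin ligase adaptor Spop. The Usp17l genes encode deubiquitinating enzymes, first described in the mouse as Dub1 (Usp17la), Dub2 (Usp17lc) and Dub3 (Usp17le). Ubtfl1 encodes an HMG-box protein of the preimplantation embryo, Tmem92 a membrane protein, and Eif1ad a protein with a domain of the translation initiation factor eIF1A.

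Polyadenylated RNA was counted in 27 libraries, each from a pool of 15 to 20 wild-type embryos harvested as morulae at E2.75, with 3 libraries in each of 9 groups. In the inhibitor family, embryos received at E2.5 a vehicle (Vehicle), SAHA at 500 nM or TSA at 50 nM, both inhibitors of histone deacetylases, or A485 at 10 uM, an inhibitor of the histone acetyltransferases p300 and CBP; the file headers gave the doses. In the siRNA family, zygotes were injected at E0.5 (embryonic day) with siControl, siP300, siKat6a, siKat6b or siComb, and the make-up of siComb is not given in the labels. The series text calls the pools biological replicates without saying how they were prepared, so p-values measure the spread between these libraries, which may be technical. In pools of whole embryos, fewer cells carrying an RNA and less of it per cell cannot be told apart.

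Libraries held 7633990 to 11991314 counts. Of 10 genes named as markers of morula blastomeres, 9 were detected in at least 1 library and Sox2 was listed at 0 in all libraries. Their summed level was 2893 to 3782 CPM in Vehicle, 2013 to 2887 in A485, 1144 to 1206 in SAHA and 591 to 707 in TSA, and 1378 to 1894 in siControl against 1125 to 2040 over the other siRNA groups (CPM is the count divided by the library total and multiplied by 1000000). Gata3 stood at 299 to 343 CPM in Vehicle and 4.45 to 6.15 in TSA, and in A485 Cdx2 was at 0 and Nanog at 0.768 to 2.17 CPM against 113 to 196 in Vehicle. Ep300 stood at 19.7, 12.9 and 35.9 CPM in the siP300 libraries and at 22.05, 22.84 and 26.96 in siControl. The difference did not pass (edgeR log2 -0.43 ± 0.29 SE, adjusted p = 0.259). By CPM the library labelled siP300 3 lay above every control. CPM leave out edgeR's scaling factors (TMM), 1.25 for siP300 3 and 0.881 to 0.918 in siControl. Divided by these factors, siP300 3 lay inside the controls. A fall of its target was seen on neither scale, so its label was not borne out by Ep300. Kat6a stood at 10.6 to 12.9 CPM in siKat6a against 15.3 to 17.6 in siControl (adjusted p = 1, edgeR). Kat6b stood at 66.0 to 82.4 CPM in siKat6b against 97.5 to 108 (adjusted p = 0.495, edgeR). Mitochondrially encoded genes took 4.93 to 6.99% of counts in siP300 and 4.86 to 5.41% in siComb against 1.94 to 2.45% in siControl, and 1.61 to 2.15% in SAHA, 2.36 to 2.62% in A485 and 2.48 to 3.53% in TSA against 0.997 to 1.20% in Vehicle. Of 3 blood markers, Hba-a1 stood in the siP300 libraries at 33.5 to 117 CPM and in those of siComb at 26.3 to 69.0, against 0.54 to 1.16 in siControl, and siKat6b 3 (26.7 CPM) lay above siKat6b 1 and 2 (1.47 and 2.76). With TSA it stood at 16.1 to 37.9 CPM and with SAHA at 3.15 to 4.03, against at most 0.19 in Vehicle, while Hbb-bs was at 0 in all libraries and Ptprc at 0.37 CPM or less. siP300 3 stood at 6.99% mitochondrial counts and 93.9 CPM over the 3 blood markers, above siControl as siP300 1 and 2 were. Its label was not tested further. The part of these differences in the results below was not tested.

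The genes lie in separate places and in 2 clusters. In GENCODE vM21 (GRCm38), Zfp352 occupies chr4:90218820-90225702 on the plus strand in 2 exons, Ubtfl1 chr9:18404418-18413177, Tmem92 chr11:94777217-94782703 and Eif1ad chr19:5366741-5371526, where it overlaps Banf1. The Tdpoz genes lie on chromosome 3 (Tdpoz1 at chr3:93669333-93676310, Tdpoz4 at chr3:93796398-93797510, Tdpoz3 at chr3:93826020-93827117). The Usp17l genes lie on chromosome 7 (Usp17lc at chr7:103415072-103419880, Usp17le at chr7:104768049-104777470, Usp17la at chr7:104857009-104862667).

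Upstream sequence was available from RefSeq (GRCm38.p6) for 7 of the 10 genes, and the promoter of Zfp352 is shown because no other in that table holds as many copies of this word. It holds 9 copies of TAATCC, the reverse complement of GGATTA, a core bound by homeodomain proteins of the OTX type, spaced 20 or 21 bases apart. The copies start 227 to 61 bases before the transcription start. Tdpoz1 holds 1 copy. Each window stops where the GENCODE gene begins, which for Zfp352 is also the RefSeq start and for Tdpoz1 lies upstream of it, and capitals mark GGATTA on either strand.
Zfp352 (chr4:90218570-90218819, plus strand): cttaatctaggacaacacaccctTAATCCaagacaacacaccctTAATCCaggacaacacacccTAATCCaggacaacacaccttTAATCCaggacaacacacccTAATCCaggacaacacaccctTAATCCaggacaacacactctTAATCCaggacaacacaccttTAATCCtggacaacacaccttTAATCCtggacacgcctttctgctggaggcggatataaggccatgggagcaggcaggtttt
Tdpoz1 (chr3:93676311-93676433, minus strand): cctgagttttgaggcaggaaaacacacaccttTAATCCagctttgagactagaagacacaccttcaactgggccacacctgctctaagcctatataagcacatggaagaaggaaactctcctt

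Of 32851 promoters searched over 300 bases on both strands, 2320 (7.06%) held GGATTA at least once, 118 (0.359%) held it 2 or more times and 1, that of Zfp352, held it 9 times. Of the 7 promoters of these genes, 3 held it (Zfp352, Tdpoz1 and Eif1ad). GATTNAATC, a palindromic core of the Dux type (0.268% of all promoters), and TGCACAC, a word bound by Zscan4 (4.40%), were in none of the 7. A match is a description of letters and not of a bound site.

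The promoters of Usp17lc and Usp17la are shown because these near-copies reached different levels in high libraries of the siRNA family. Their log2 fold changes had the same direction in siP300 (6.50 and 7.09), siKat6b (5.27 and 7.05) and siComb (7.23 and 10.30). Whether the promoter letters bear on these levels was not tested. Over the 300 bases, 245 aligned identically (81.7%). TATAAA (13.6% of all promoters) was present in Usp17lc, 88 bases before its RefSeq start, and the 6 aligned letters of Usp17la, marked in capitals with those of Usp17lc, differed from it at 1 position. The window of Usp17lc ends at its RefSeq start, which lies inside the GENCODE gene, and that of Usp17la ends where the GENCODE gene begins.
Usp17lc (chr7:103416546-103416695, plus strand): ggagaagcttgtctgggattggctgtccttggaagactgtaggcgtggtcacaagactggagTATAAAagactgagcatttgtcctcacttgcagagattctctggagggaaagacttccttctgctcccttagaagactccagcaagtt
Usp17la (chr7:104856866-104857008, plus strand): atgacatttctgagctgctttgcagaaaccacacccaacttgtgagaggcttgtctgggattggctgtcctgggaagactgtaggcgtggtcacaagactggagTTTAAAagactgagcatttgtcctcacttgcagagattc

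Near-identical copies make the counts of several members uncertain. Coding sequences of Usp17la, Usp17lc and Usp17le were 93.4 to 94.5% identical over aligned bases, and Usp17lc was 98.4% identical to Usp17ld. Those of Tdpoz1, Tdpoz3 and Tdpoz4 were 78.8 to 88.4% identical. Of all stretches of 100 bases in its annotated transcripts, Tdpoz3 shared 46.7% with the gene model Gm4982, Usp17lc shared 32.3% with Usp17ld and Tdpoz1 shared 23.8% with Gm9117. Usp17le shared 8.22% with other genes, Usp17la 3.83%, Zfp352 0.643% and Tmem92 0%. How the authors counted reads with several matches is not given in the sources used here.

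Several libraries stood apart from their groups before any comparison. Among the Vehicle libraries, Zfp352 stood at 0, 0.55 and 36.9 CPM. Usp17la stood at 0.19, 0.18 and 17.1 CPM, Usp17lc at 0.57, 0.18 and 25.8, and Usp17le at 0, 0.18 and 19.6. Vehicle 3 was therefore high where the other Vehicle libraries were near 0, while its Eif1ad (228 CPM) and Ubtfl1 (15.1 CPM) were close to theirs. In the siRNA family, siP300 2, siKat6b 1, siKat6b 3 and siComb 2 were high for Zfp352 and Usp17lc, and of these siComb 2 was high for Usp17la and Usp17le too. Counts of members called, and the fold changes of Zfp352 and the Usp17l genes that passed, are given with and without Vehicle 3, siP300 2 and siComb 2. Shares of all genes that rose or fell are given for the full fits alone. Counts with libraries left out therefore cannot be set against a general gain or loss of calls.

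In control embryos Eif1ad was the most abundant of the 10 genes, by length as well as by count. Per kilobase of exon it stood at 77.2 ± 3.84 CPM in Vehicle and 49.8 ± 10.4 in siControl (SD, n = 3). In siControl the next genes per kilobase were Ubtfl1 at 3.48 ± 1.03, Tdpoz1 at 0.752 ± 0.370 and Tmem92 at 0.717 ± 0.321, and the last 2 did not differ beyond their spread. Zfp352 stood at 0.343 ± 0.317, Usp17le at 0.191 ± 0.00981, Tdpoz4 at 0.116 ± 0.201 and Usp17lc at 0.102 ± 0.0383 CPM per kilobase. Usp17la and Tdpoz3 were at 0 in all 3 siControl libraries, which allows up to 0.0949 CPM over the group (3 counts, counting error only). Ubtfl1 was the one gene of the 9 above 10 CPM in every control library, at 11.97, 14.2 and 15.1 CPM in Vehicle and 10.9, 20.0 and 15.3 in siControl.

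**Figure D1:**
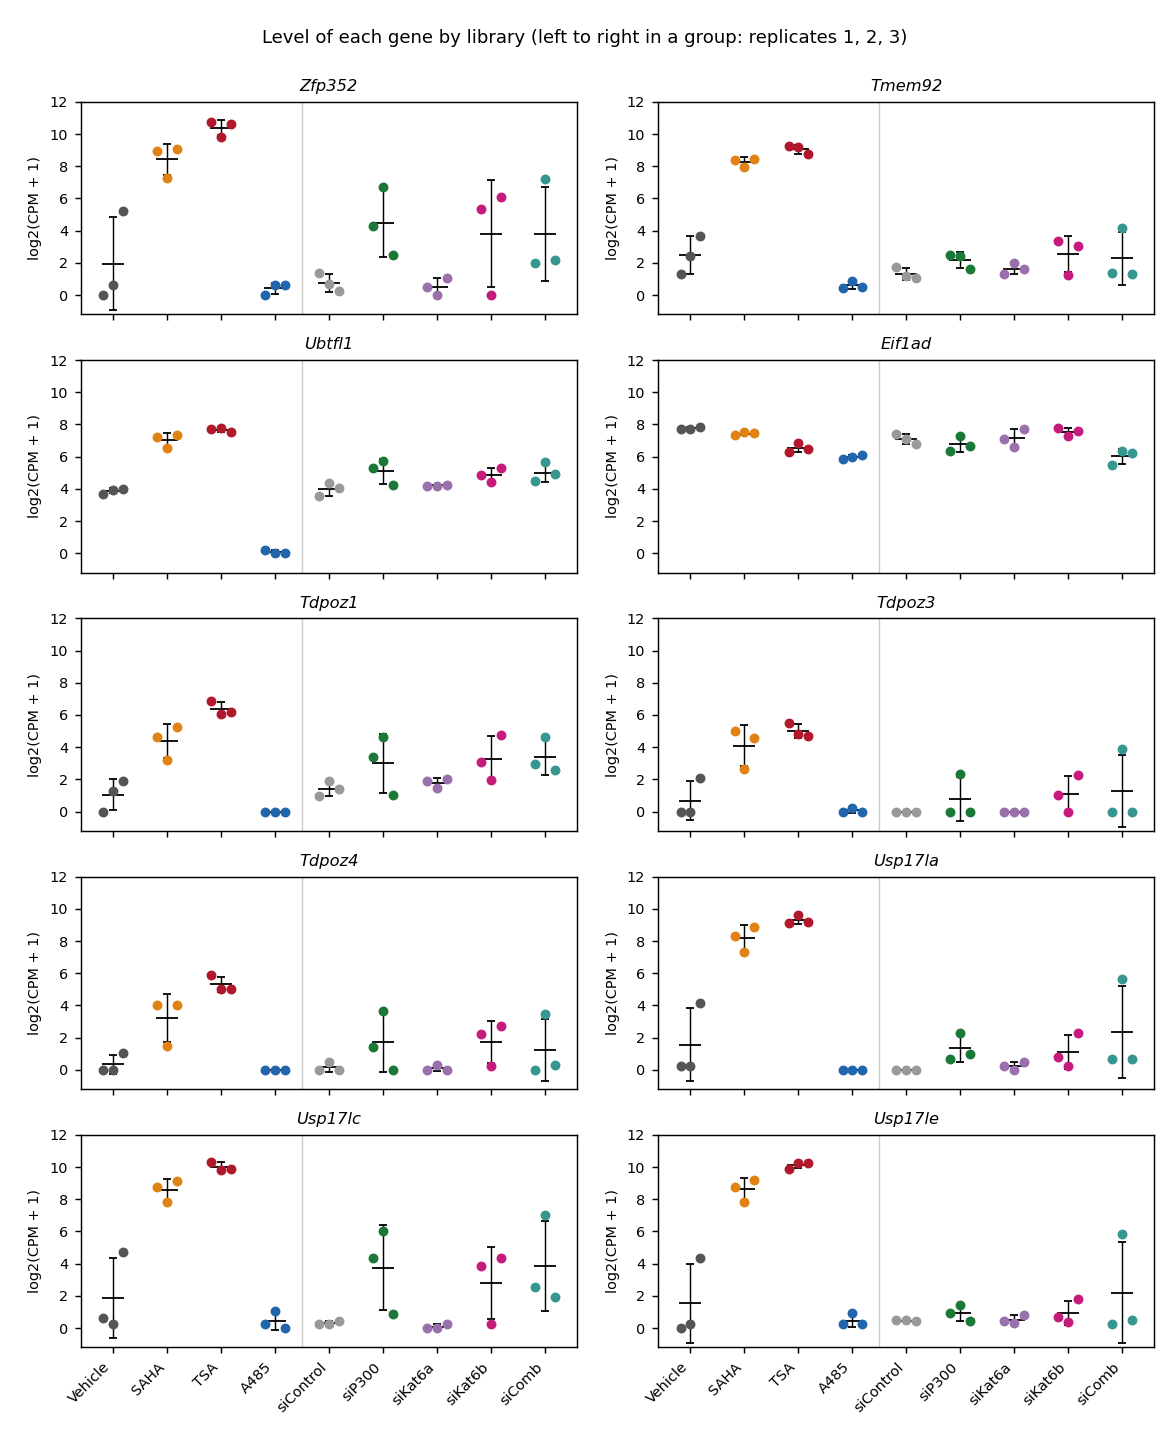
Levels of the 10 genes as log2(CPM + 1), 1 panel per gene and 1 point per library; dashes and bars are the mean and SD of 3 libraries. All SAHA and TSA libraries lie above all Vehicle libraries for 9 genes, Eif1ad spans the smallest range, and Ubtfl1 is near 0 with A485 alone.

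With SAHA the question was how the embryos' RNA changed when histone deacetylases were blocked shortly before harvest. Of the 10 genes, 9 rose and none fell, with a median log2 fold change of 4.98 against 0.06 over all genes tested; 20.2% of the 18299 genes tested rose and 14% fell. The verbs rose and fell mark an adjusted p under 0.05 in edgeR's quasi-likelihood test (Benjamini-Hochberg), and log2 values are its fold changes ± SE. Without Vehicle 3 the same count, 9, rose. Zfp352, Tdpoz1, Tdpoz3, Tdpoz4 and the Usp17l members passed the filter on low counts through the SAHA and TSA libraries alone. Their counts in Vehicle and A485 were too low for it. The count of rising members here and with TSA is therefore in part set by the filter. In the SAHA, A485 and siP300 comparisons the direction in which no member passed edgeR's test also held 0 members at an unadjusted p under 0.05 and 0 in DESeq2.

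Zfp352 stood at 489, 154 and 527 CPM with SAHA, all above the highest Vehicle library at 36.9 CPM. Its pooled level was 31.0-fold that of Vehicle (log2 4.98 ± 1.19, edgeR adjusted p = 0.00522), and without Vehicle 3 its log2 was 10.46. Tmem92 stood at 337, 246 and 354 CPM against 1.51, 4.29 and 11.8 (log2 5.75 ± 0.52, edgeR adjusted p = 2.59e-06). SAHA 2 was the lowest of its group for both genes, and neither gene's groups overlapped.

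The deubiquitinase genes reached like levels with SAHA. Usp17la stood at 318, 158 and 471 CPM, Usp17lc at 427, 225 and 568, and Usp17le at 437, 229.7 and 599. In each SAHA library Usp17le and Usp17lc lay close together and Usp17la lowest, and all lay above every Vehicle library. Pooled folds were 54.1 for Usp17la, 46.0 for Usp17lc and 64.1 for Usp17le (log2 5.78, 5.54 and 6.02, edgeR adjusted p = 0.00152, 0.00147 and 0.000915). Vehicle 3 set these sizes, and without it the log2 fold changes were 10.71, 10.12 and 12.03.

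The Tdpoz genes rose from a lower level. Tdpoz1 stood at 23.7, 8.16 and 37.7 CPM with SAHA against 0, 1.46 and 2.68 (log2 4.09 ± 0.75, edgeR adjusted p = 0.00128). Tdpoz3 stood at 31.7, 5.31 and 23.0 CPM and Tdpoz4 at 15.6, 1.8 and 15.6, again lowest in SAHA 2 and above every Vehicle library. Ubtfl1 rose from its standing level to 145, 91.4 and 162 CPM (9.51-fold, log2 3.29 ± 0.27, edgeR adjusted p = 1.07e-06). Eif1ad stood at 160.3, 181 and 174 CPM with SAHA against 207, 212 and 228, below every Vehicle library, but its difference did not pass (log2 -0.31 ± 0.17, edgeR adjusted p = 0.158).

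TSA against Vehicle put the same question with another deacetylase inhibitor at another dose. Of the 10 genes, 9 rose and 1, Eif1ad, fell, with a median log2 of 6.74 against 0.08 over all genes tested; 31.6% of genes rose and 26.6% fell. The counts were again 9 and 1 without Vehicle 3.

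Zfp352 stood at 1703, 917 and 1552 CPM with TSA (113-fold, log2 6.88 ± 1.29, edgeR adjusted p = 0.000425). Usp17lc stood at 1281, 885 and 955 CPM and Usp17le at 956, 1205 and 1239 (119-fold and 176-fold, log2 6.96 and 7.52, edgeR adjusted p = 0.000155 and 9.59e-05). TSA 1 was the highest TSA library for Zfp352 and Usp17lc and the lowest for Usp17le, and every TSA library lay above every Vehicle library for these genes. Usp17la stood at 549, 768 and 592 CPM (log2 6.86, edgeR adjusted p = 0.000243). Without Vehicle 3 the log2 fold changes were 12.35 for Zfp352, 11.53 for Usp17lc, 13.52 for Usp17le and 11.78 for Usp17la.

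Tmem92 stood at 599, 589 and 427 CPM with TSA (92.3-fold) and Ubtfl1 at 214, 220.4 and 183 (14.9-fold). Tdpoz1 stood at 115, 65.9 and 70.9 CPM, Tdpoz3 at 44.3, 27.1 and 25.0, and Tdpoz4 at 57.4, 32.0 and 31.0 (60.5-fold, 30.8-fold and 116-fold). These 5 genes showed no overlap with Vehicle. Eif1ad moved the other way, to 77.3, 113 and 89.1 CPM against 207, 212 and 228 (log2 -1.11 ± 0.17, edgeR adjusted p = 6.87e-05), also without overlap. SAHA and TSA were given at separate doses and share the Vehicle libraries, so their values stand side by side and no difference between the inhibitors was tested. Scaling by DESeq2 size factors moved the median log2 of all genes by 0.14 for TSA and left the direction of all 10 genes as it was.

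With A485 the question was how RNA changed when p300 and CBP were blocked over the same hours. Of the 10 genes, 8 fell and none rose, with a median log2 of -4.63 against -0.06 over all genes tested; 24.2% of genes fell and 21.4% rose. Without A485 1, 5 fell. Without Vehicle 3, 4 fell (Ubtfl1, Eif1ad, Tmem92 and Tdpoz1) and 4 of the 8 no longer passed, and the fitted differences of Zfp352, Tdpoz3, Usp17lc and Usp17le changed sign.

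Ubtfl1 carried the clearest fall. It stood at 0.17, 0 and 0 CPM with A485 against 11.97, 14.2 and 15.1 in Vehicle, with no overlap (log2 -7.63 ± 0.50, edgeR adjusted p = 5.19e-08; log2 -7.56 without Vehicle 3). Tmem92 stood at 0.35, 0.85 and 0.43 CPM against 1.51, 4.29 and 11.8, also with no overlap (log2 -3.48 ± 0.65, edgeR adjusted p = 0.000569). Tdpoz1 was at 0 in all 3 A485 libraries, at least 15.5-fold lower than Vehicle taking 3 counts per group as the floor, although Vehicle 1 was at 0 as well.

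Eif1ad fell with A485 to 55.8, 62.7 and 68.0 CPM, 3.46-fold lower (log2 -1.84 ± 0.17, edgeR adjusted p = 1.40e-06), below every Vehicle library. Zfp352 stood at 0, 0.56 and 0.51 CPM with A485, against 0 and 0.55 in Vehicle 1 and 2. Usp17la was at 0 in all A485 libraries and Usp17lc at 0.17, 1.13 and 0, where Vehicle 1 and 2 were already under 0.6 CPM. A further fall of these genes was hardly detectable at this depth, and their folds describe Vehicle 3.

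**Figure D2:**
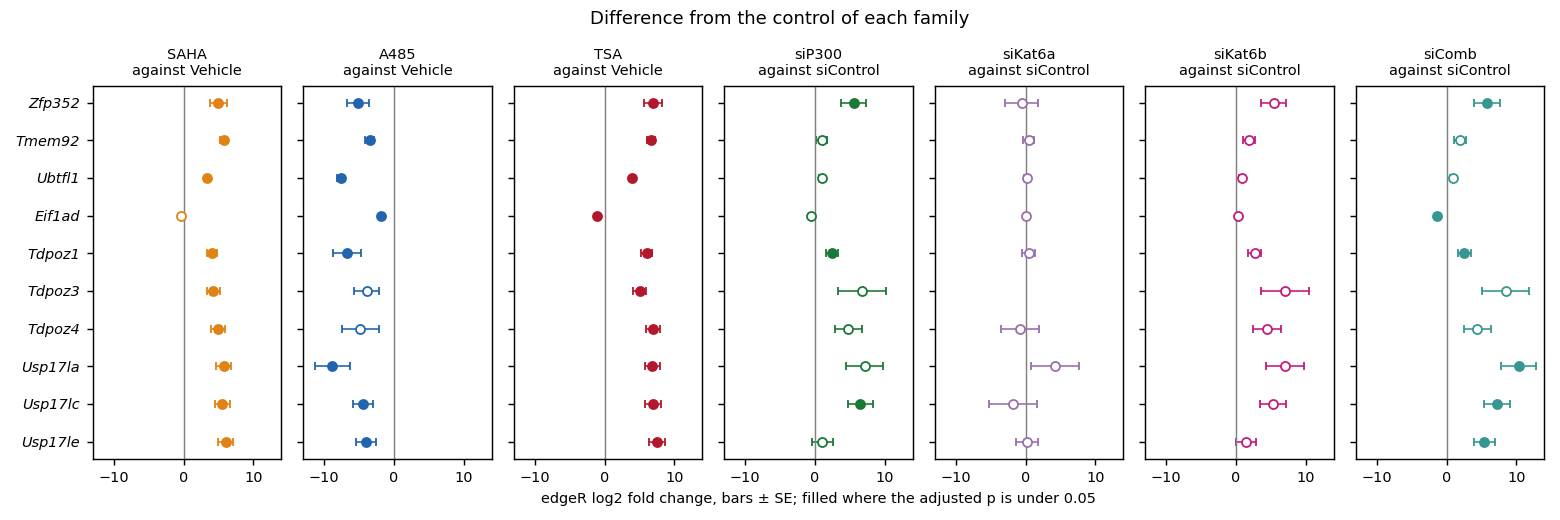
edgeR log2 fold change of each gene in 7 comparisons, with bars for the SE; filled points have an adjusted p under 0.05. SAHA and TSA raise 9 genes, A485 lowers 8, and in siP300, siKat6b and siComb the genes other than Eif1ad lie to the right with wide errors, while in siKat6a they lie on both sides of 0; Tdpoz3 has no point for siKat6a because both groups were at 0.

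siP300 against siControl asked about depleting p300 from the zygote onwards, with the label of siP300 3 not borne out by its Ep300. Of the 10 genes, 3 rose (Zfp352, Tdpoz1 and Usp17lc) and none fell, with a median log2 of 3.60 against 0.13 over all genes tested; 19.7% of the 19182 genes tested rose and 15.7% fell. Without siP300 2, 1 rose (Usp17lc) and 1 fell (Eif1ad). With siP300 2, siKat6b 1, siKat6b 3 and siComb 2 left out together, 3 rose (Zfp352, Usp17la and Usp17lc) and 1 fell (Eif1ad). Without siControl 1, 0 rose, without siControl 2 or siControl 3, 1 rose, and without siP300 3, 5 rose. Zfp352, Tdpoz3, Tdpoz4 and the Usp17l members passed the filter on low counts through siP300, siKat6b and siComb libraries. Counts of rising members in the siRNA family are thus in part set by the filter.

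Zfp352 stood at 18.4, 104 and 4.50 CPM in siP300 against 1.58, 0.58 and 0.18 in siControl (50.5-fold, log2 5.53 ± 1.8, edgeR adjusted p = 0.0253). Usp17lc stood at 19.7, 64.2 and 0.83 CPM against 0.20, 0.19 and 0.36 (101-fold, log2 6.50 ± 1.85, edgeR adjusted p = 0.0124). All siP300 libraries lay above all controls for both genes, with the library labelled siP300 3 the lowest. Without siP300 2 the log2 was 3.56 for Zfp352, which no longer passed, and 4.97 for Usp17lc, which did (edgeR adjusted p = 0.123 and 0.0438). Usp17le, the near-copy, stood at 0.91, 1.75 and 0.33 CPM against 0.40, 0.39 and 0.36, overlapping the controls (log2 1.06 ± 1.51, edgeR adjusted p = 0.611).

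Usp17la stood at 0.61, 3.93 and 1.00 CPM in siP300 against 0 in every control, at least 18.3-fold higher, and narrowly did not pass (edgeR adjusted p = 0.0525). Tdpoz1 stood at 9.52, 23.6 and 1.00 CPM against 0.99, 2.71 and 1.61, so siP300 3 lay inside the controls (log2 2.42 ± 0.92, edgeR adjusted p = 0.0497; log2 1.25 and adjusted p = 0.304 without siP300 2). Tdpoz4 stood at 1.72, 11.7 and 0 CPM and Tdpoz3 at 0, 4.15 and 0. Ubtfl1 stood at 38.4, 52.6 and 17.8 CPM against 10.9, 20.0 and 15.3 (log2 0.95 ± 0.39, edgeR adjusted p = 0.0649) and Tmem92 at 4.56, 4.37 and 2.08 against 2.37, 1.26 and 1.07, each with siP300 3 inside the controls. Scaling by library size alone moved the median log2 of all genes by 0.32, raised the count of rising members to 5 and reversed no member.

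siKat6a against siControl asked about depleting the acetyltransferase KAT6A. None of the 10 genes rose or fell in edgeR, with 0% of all genes rising and 0% falling. At an unadjusted p under 0.05 the count among the 10 was also 0, while over all genes it was 199 higher and 211 lower, and DESeq2 called 0 genes higher and 1 lower. Zfp352 stood at 0.39, 0 and 1.12 CPM, Usp17lc at 0, 0 and 0.19, and Ubtfl1 at 17.4, 17.2 and 18.3. Zfp352 and Ubtfl1 overlapped siControl, and Usp17lc lay below it by less than 1 CPM. Tdpoz3 was at 0 in both groups.

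siKat6b against siControl asked the same of KAT6B. None of the 10 genes passed in edgeR, with 0.0104% of all genes rising and 0.0104% falling, and the median log2 of the 10 was 3.52 against 0.02. At an unadjusted p under 0.05, 6 of the 10 were higher and 0 lower (1247 and 757 over all genes), and DESeq2 called 1 of the 10 and 167 of all genes higher. The replicates disagreed. Zfp352 stood at 39.3, 0 and 67.2 CPM, Usp17lc at 13.2, 0.20 and 19.7, and Tdpoz1 at 7.57, 2.96 and 26.4, so that siKat6b 1 and siKat6b 3 were high and siKat6b 2 lay at the controls for Zfp352 and Usp17lc. Tmem92 stood at 9.14, 1.38 and 7.34 CPM in the same order. Usp17le stood at 0.63, 0.30 and 2.48 CPM and Usp17la at 0.74, 0.20 and 3.93, low even in the libraries in which Zfp352 was high.

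siComb against siControl asked about the combined injection. Of the 10 genes, 5 rose (Zfp352, Tdpoz1, Usp17la, Usp17lc and Usp17le) and 1 fell (Eif1ad), with a median log2 of 4.88 against 0.09 over all genes tested; 19.6% of genes rose and 17.1% fell. Without siComb 2, 1 rose (Usp17la) and 1 fell (Eif1ad). Without siComb 1, 8 rose, and without siControl 2 or siControl 3, 3 rose. With the 4 high siRNA libraries left out together, 1 rose (Usp17lc).

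Zfp352 stood at 3.03, 146 and 3.49 CPM with siComb against 1.58, 0.58 and 0.18 (65.4-fold, log2 5.80 ± 1.81, edgeR adjusted p = 0.0192). Usp17lc stood at 4.75, 132 and 2.88 CPM against 0.20, 0.19 and 0.36 (180-fold, log2 7.23 ± 1.86, edgeR adjusted p = 0.00636). All siComb libraries lay above the controls for both genes, and siComb 2 lay far above the other siComb libraries. Without siComb 2 the log2 was 1.798 for Zfp352 and 3.57 for Usp17lc, and neither passed (edgeR adjusted p = 0.415 and 0.0829). Usp17le stood at 0.20, 56.1 and 0.41 CPM against 0.40, 0.39 and 0.36, so its call (log2 5.37 ± 1.50, edgeR adjusted p = 0.0106) came from siComb 2, without which its log2 was -0.56.

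Usp17la stood at 0.61, 48.2 and 0.62 CPM with siComb against 0 in every control, at least 170-fold higher (log2 10.30, edgeR adjusted p = 0.00455). Without siComb 2 its log2 was 5.53 (edgeR adjusted p = 0.0487). Tdpoz1 stood at 6.88, 24.1 and 4.93 CPM against 0.99, 2.71 and 1.61, with no overlap (log2 2.5 ± 0.92, edgeR adjusted p = 0.0424; log2 1.44 and adjusted p = 0.248 without siComb 2). Ubtfl1 stood at 21.4, 49.3 and 29.0 CPM, above every control by CPM as well, but did not pass (log2 0.86 ± 0.39, edgeR adjusted p = 0.0924). Divided by edgeR's scaling factors, its siComb 1 level lay inside the controls. Tdpoz3 was at 13.6 CPM and Tdpoz4 at 10.004 in siComb 2, and Tdpoz3 was at 0 in the other siComb libraries. Eif1ad stood at 44.1, 79.4 and 73.3 CPM against 169, 138 and 111, below every control (log2 -1.33 ± 0.31, edgeR adjusted p = 0.00347). Scaling by library size alone moved the median log2 of all genes by 0.26 in this comparison and reversed no member.

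The members parted within the high libraries of the siRNA family. MERVL-int, the internal region of the retrovirus, stood at similar levels in siP300 2 (914 CPM), siKat6b 1 (898), siKat6b 3 (946) and siComb 2 (989), where Zfp352 stood at 104, 39.3, 67.2 and 146 CPM. Usp17le stood at 1.75, 0.63, 2.48 and 56.1 CPM in the same order, and Usp17la at 3.93, 0.74, 3.93 and 48.2. Both were thus low in 3 of these libraries and high in siComb 2. Zscan4d was also highest in siComb 2, at 18.8, 0.63, 3.10 and 172 CPM, though siP300 2 lay above siControl (0.58 to 0.99). Dux (Duxf3) was at 0.22 CPM or less in all 4 and at 3.03 to 34.6 CPM in the SAHA and TSA libraries.

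**Figure D3:**
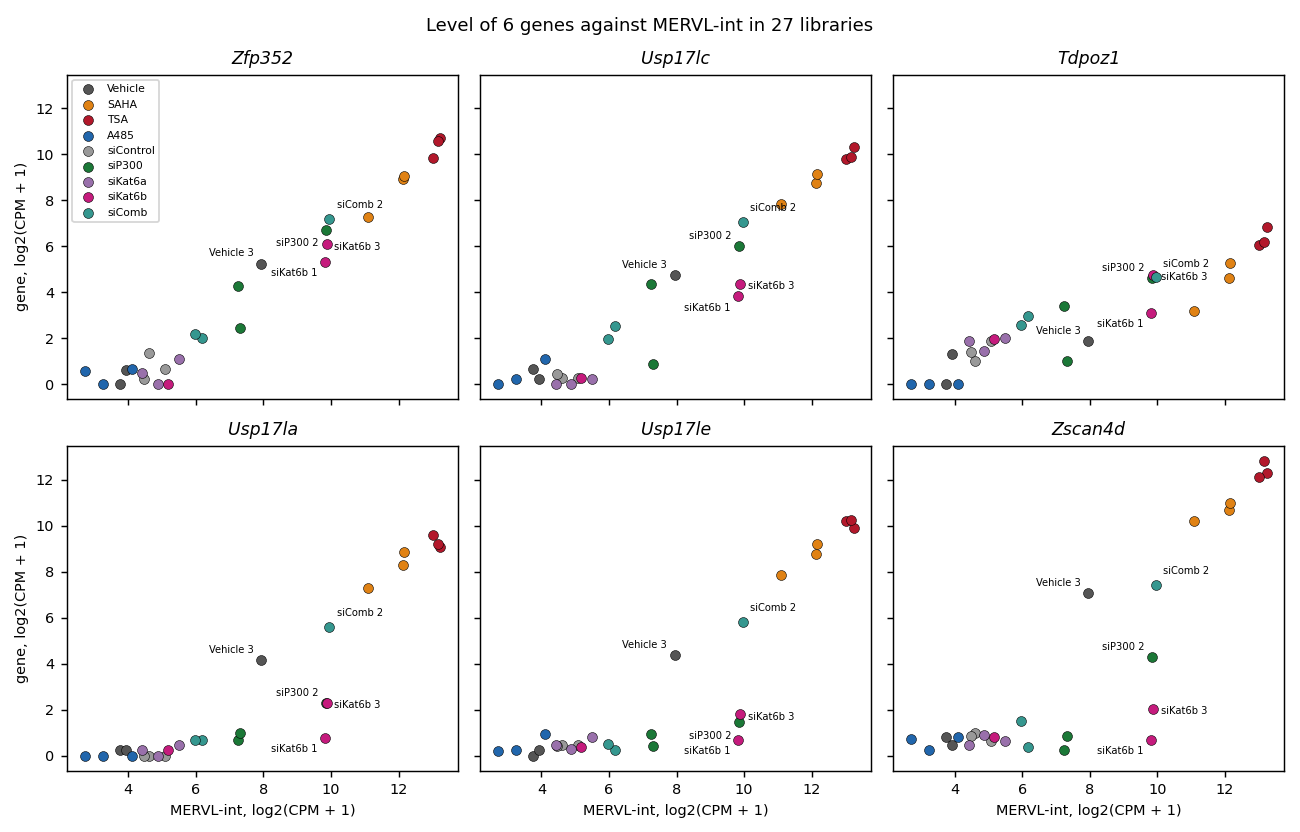
Level of 6 genes against that of MERVL-int, both as log2(CPM + 1), in 27 libraries coloured by group. Zfp352, Usp17lc and Tdpoz1 rise along with MERVL-int, although Tdpoz1 in Vehicle 3 (2.68 CPM) is no higher than in siControl 2 (2.71). Usp17la, Usp17le and Zscan4d are lower in siP300 2, siKat6b 1 and siKat6b 3 than in siComb 2 and Vehicle 3.

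Vehicle 3 lay nearer the SAHA and TSA libraries in its Usp17le, although its Duxf3 was at 0. As a percentage of MERVL-int, Usp17le stood at 8.02% in Vehicle 3, at 9.72 to 13.2% with SAHA and at 9.91 to 14.5% with TSA. It stood at 5.67% in siComb 2, 0.26% in siKat6b 3, 0.19% in siP300 2 and 0.07% in siKat6b 1. Zfp352 varied less on that scale, at 15.1% in Vehicle 3, 7.08 to 17.7% with SAHA or TSA, and 14.7, 7.11, 11.4 and 4.38% in siComb 2, siKat6b 3, siP300 2 and siKat6b 1. These libraries were picked out by their levels, so the contrast is a description with no test.

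The same split showed in the make-up of the Usp17l counts, a ratio within a library that scaling does not touch but that reads shared between copies could move. Among the counts of Usp17la, Usp17lc and Usp17le together, Usp17le took 37.0, 37.5 and 36.6% with SAHA, 34.3, 42.2 and 44.5% with TSA and 31.3% in Vehicle 3 (95% Wilson interval 27.9 to 35.0%). Usp17lc took 34.7 to 36.8% with SAHA and 31.0 to 46.0% with TSA. In siP300 1 and siP300 2, Usp17lc took 92.8% (88.5 to 95.6%) and 91.9% (89.5 to 93.8%), and in siKat6b 1 90.6% (84.7 to 94.5%), which left Usp17le 4.31, 2.5 and 4.32%. siKat6b 3 lay between, with 75.5% Usp17lc and 9.49% Usp17le. siComb 2 had 55.8% Usp17lc and 23.8% Usp17le (22.1 to 25.6%), and siComb 1 had 85.5% Usp17lc on 55 counts. Intervals cover counting error only.

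**Figure D4:**
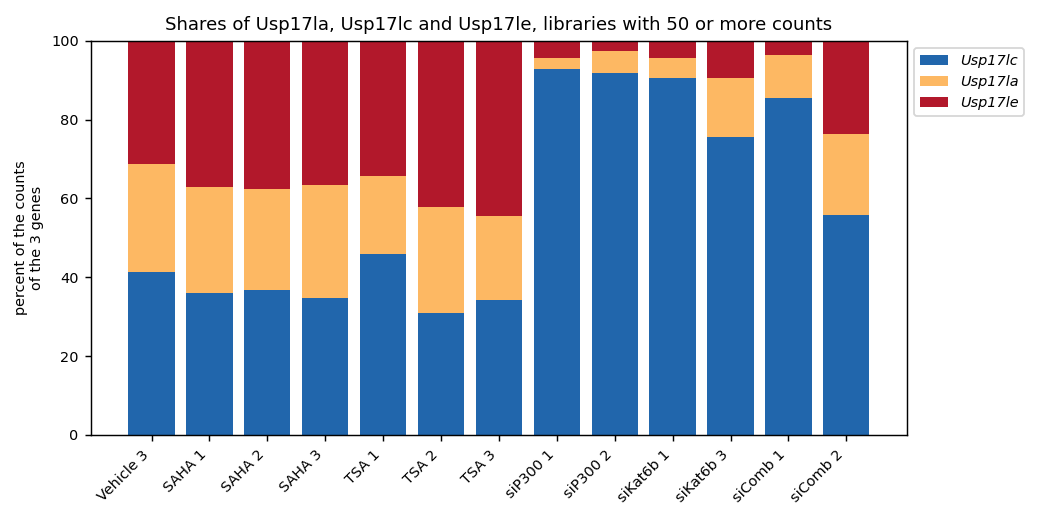
Shares of Usp17lc, Usp17la and Usp17le in their summed counts, in percent, for the 13 libraries with at least 50 such counts. Usp17le makes up 31.3 to 44.5% in Vehicle 3, SAHA and TSA, and 2.5 to 9.49% in the siP300 and siKat6b libraries shown.

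The Tdpoz genes differed in the same libraries through Tdpoz3. Of the counts of Tdpoz1, Tdpoz3 and Tdpoz4 together, Tdpoz3 took 30.2 to 44.6% with SAHA, 19.7 to 21.7% with TSA and 45.8% in Vehicle 3 (34.8 to 57.3%). It took 28.5% in siComb 2, 10.5% in siP300 2, 8.55% in siKat6b 1 and 10.7% in siKat6b 3. It was at 0 of 111 counts in siP300 1, where the Wilson interval reached 3.35%. Tdpoz1 made up the rest in siComb 1, with 68 of 68 counts, and was the one Tdpoz member detected in all siControl libraries.

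Other genes of the same families were also in the table. Usp17lb, a further deubiquitinase gene, was more abundant than the members, at 449 to 1545 CPM with SAHA and 2576 to 2692 with TSA against 0, 0 and 83.8 in Vehicle (log2 5.17 ± 1.41 and 6.64 ± 1.51, edgeR adjusted p = 0.0115 and 0.00182). Among the high siRNA libraries, siComb 2 held it at 184 CPM, siP300 2 at 110, siKat6b 3 at 46.7 and siKat6b 1 at 5.99. Usp17ld, the copy closest to Usp17lc, stood at 55.5 to 127 CPM with SAHA and 270.2 to 319 with TSA (edgeR adjusted p = 1.99e-05 and 1.23e-06). Tdpoz8 and Tdpoz9 rose with both deacetylase inhibitors, while Tdpoz2 and Tdpoz6 rose with TSA (log2 2.82 ± 0.71 and 2.63 ± 0.87) and did not pass with SAHA, and their difference between SAHA and TSA was not tested. Tdpoz2 and Tdpoz6 were present in every siControl library at 2.96 to 3.77 CPM. Tdpoz6 fell in siP300 (log2 -1.32 ± 0.43, edgeR adjusted p = 0.0235), opposite to Tdpoz1.

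The relatives of Eif1ad and Ubtfl1 found by a shared symbol stem were Eif1a, Eif1ax and Ubtf, and relatives under other symbols were not searched for. Eif1a, which encodes the initiation factor itself, fell with SAHA, TSA, siP300 and siComb (log2 -0.98, -1.68, -0.98 and -1.03, each ± 0.17 to 0.21). Eif1ax fell with siP300 and siComb (log2 -0.84 ± 0.18 and -0.78 ± 0.18). Ubtf, the RNA polymerase I factor, fell with TSA and A485 (log2 -2.78 ± 0.28 and -1.19 ± 0.26), so it moved opposite to Ubtfl1 with TSA and along with it under A485.

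A list of 51 other 2-cell genes gave the setting, of which 42 passed the count filter for the inhibitor libraries and 40 for the siRNA libraries. With SAHA 36 rose and none fell, with TSA 40 rose and 1 fell, and with A485 33 fell and none rose (10 without Vehicle 3). In siP300 32 rose and 2 fell, and 12 to 16 rose without siControl 1, siControl 2, siControl 3 or siP300 2. In siComb 29 rose and 2 fell, with 6 rising without siComb 2 and 17 or 18 without a siControl library. In siKat6a and siKat6b none passed in edgeR. At an unadjusted p under 0.05, 2 were higher in siKat6a and 27 in siKat6b, and DESeq2 called 6 in siKat6b. Their median log2 was 5.37 with SAHA, 6.69 with TSA, -5.40 with A485, 5.17 in siP300 and 5.37 in siComb.

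The lowest adjusted p among the named genes of that list went to Arg2, the mitochondrial arginase, with SAHA (log2 6.14 ± 0.44) and TSA (7.13 ± 0.46), followed by Ddit4l, an inhibitor of mTOR signalling (3.15 ± 0.29 and 3.88 ± 0.30). With A485 it went to Calcoco2, an autophagy receptor (log2 -6.65 ± 0.34), which was also the 1 gene of the list that fell with TSA. In siP300 and siComb it went to Usp26, another deubiquitinase (log2 3.27 ± 0.45 and 3.67 ± 0.45), and Zfp640 and Calcoco2 fell in both. Arg2, Ddit4l, Calcoco2 and Usp26 had edgeR adjusted p values from 6.62e-09 to 6.32e-05 in these comparisons.

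Of the genes with a mean of at least 10 CPM, those most like Zfp352 over 27 libraries included Spopfm1, Spopfm3, Usp17lc (one of the 10) and Tcstv3, with Pearson r of log2(CPM + 1) of 0.990, 0.988, 0.985 and 0.984. Within the 15 siRNA libraries r was 0.973, 0.978, 0.961 and 0.951. Spopfm1 and Spopfm3 are named as relatives of Spop, and Tcstv3 is a 2-cell stage gene. The libraries fall into high and low ones, share controls and treatments, and r describes that split. Of the Dux, Zscan4 and MERVL rows, 8 of 8 rose with SAHA and with TSA, as 9 of the 10 genes did. Over all genes tested, 20.2% and 31.6% rose. Duxf3 was at 0 in every Vehicle library and passed the count filter through the SAHA and TSA libraries. Zscan4a to Zscan4f passed it through those libraries too, as did Zfp352 and the Tdpoz and Usp17l genes among the 10. These counts of rising rows are therefore in part set by the filter. With A485 7 of the 8 fell (24.2% of all genes). Zscan4a to Zscan4f stood at 0.75 CPM or less in Vehicle 1 and 2 and at 23.5 to 134 in Vehicle 3. MERVL-int stood at 12.5, 14.3 and 244 CPM in Vehicle and at 8.50, 16.2 and 5.55 with A485. These falls thus describe Vehicle 3, and no fit of these rows without it is given. In the siRNA family 3 were tested, of which 1 rose in siP300, 3 in siComb and 0 in siKat6a and siKat6b (19.7, 19.6, 0 and 0.0104% of all genes). With siComb, Zscan4c stood at 0.20, 95.2 and 0.21 CPM (siControl 0.19 to 0.54) and Zscan4d at 0.30, 172 and 1.85 (siControl 0.58 to 0.99). Both Zscan4 calls thus rested mainly on siComb 2. MERVL-int lay above every control in all siComb libraries, at 71.6, 989 and 61.8 CPM against 21.2 to 32.8.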

How the data were processed

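The deposited values were raw counts per gene in 27 libraries. The submitters' processing notes list STAR 2.7.11a, featureCounts and Subread 2.0.6, and 2 builds (mm10, GRCh38) with no role stated for either. No label or header stated strand, multi-mapping or pair handling. Of nonzero counts, 84.6% were even, so both reads of a pair may have been counted and floors for genes at 0 (3 counts) may be too low. MERVL rows were kept in library totals. The test was edgeR 4.0.16 (TMM scaling, quasi-likelihood F, filterByExpr minimum 10) in 1 fit of 12 inhibitor and 1 of 15 siRNA libraries, with Benjamini-Hochberg adjustment over all genes tested in a comparison and a threshold of 0.05; SEs were derived from the fold change and F. The test was checked on simulated counts. DESeq2 1.42.0 and other alternatives are given in the closing section. CPM are counts over the library total times 1000000. Positions and lengths came from GENCODE vM21, promoters from RefSeq. Same-group libraries differed beyond sampling noise (chi-square per degree of freedom 8.35 to 49.2). The 10 genes, the lists and the naming rule (all 10 genes, their families, at most 3 other 2-cell genes per comparison and the 5 genes most like Zfp352, of which 1 is not reported here) were chosen with earlier results of these data known.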

Additional observations from a re-analysis of the deposited data

How the results depend on the processing

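Of 436 alternative counts, 392 lay within 1.5 times the count given, and of 1015 alternative fold changes of the 10 genes, 920 kept direction and side of the threshold, 41 newly passed, 36 no longer passed and 18 turned sign; the causes were not tested except where libraries were left out. Scaling turned no sign. Without a filter on low counts, 1 other 2-cell gene rose with A485; 7 members rose and 1 fell in siP300; 6 members and 33 other 2-cell genes rose in siKat6b; and 9 members rose in siComb. A filter at 5 CPM gave 3 rising members in siComb. Library size alone and DESeq2 each gave 5 rising members in siP300, and DESeq2 gave 1 member and 6 other genes in siKat6b. Library size alone also moved the share of calls that were higher from 55.8 to 77.0% in siP300 and from 53.5 to 70.4% in siComb. With just the 2 groups in the fit, 3 members and 6 other genes fell with A485, 5 others rose in siKat6b and 15 in siComb. With siP300 2, siKat6b 1, siKat6b 3 and siComb 2 left out, 1 member fell in siP300, and 1 member and 11 others rose in siComb. The log2 fold changes of Zfp352, Tmem92 and Usp17lc in siKat6b were then -6.15, -0.25 and -0.41, and those of Tmem92 and Tdpoz4 in siComb -0.30 and -0.51. For siKat6b this left siKat6b 2 alone in its group, with Zfp352 at 0 counts. The libraries left out had been picked for their high levels, so lower values were set in advance.

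Same-numbered libraries did not deviate together (correlations -0.09 to 0.15), so the numbers were not taken as pairs. With the replicate number as a block, 1 member rose in siP300, and 2 members and 19 other 2-cell genes rose in siComb.

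Leaving out 1 library at a time, 4 to 9 members and 10 to 37 other genes fell with A485 and 0 to 1 other genes rose; 0 to 5 members rose, 0 to 1 fell and 12 to 32 others rose in siP300; 0 to 3 others rose in siKat6b; 1 to 8 members and 6 to 32 others rose in siComb. With A485 the log2 fold change ranged from -5.74 to 0.29 for Zfp352, -6.36 to 2.44 for Tdpoz3, -6.50 to 0.10 for Usp17lc and -5.16 to 1.96 for Usp17le, the highest without Vehicle 3. In siKat6a it ranged from -1.85 to 0.43 for Zfp352, -0.045 to 0.38 for Ubtfl1, -3.65 to 2.79 for Tdpoz4, -0.26 to 0.29 for Eif1ad and -0.30 to 0.54 for Usp17le. In siComb it ranged from -0.31 to 2.34 for Tmem92, -0.53 to 8.03 for Tdpoz4 and -0.56 to 5.94 for Usp17le, the lowest without siComb 2. Depth limited genes at 0 in the controls, where 3 counts set the smallest detectable level.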
